A study of Drosophila melanogaster with 6 samples.

Results

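In heads of adult flies that carry the Top3b26 allele of the topoisomerase gene Top3beta, 49 array probes for 44 FlyBase transcripts read at least 4-fold higher than in heads of the wild-type stock W1118 (WT). They were chosen from 16395 probes, for 12287 transcripts, that carry a FlyBase transcript identifier and lay well above background on all 6 arrays, here called measured probes. The array holds 21729 FlyBase probes for 15995 transcripts, and 32162 probes of all kinds. A probe was taken when its mean level on the Top3b26 arrays exceeded its mean level on the WT arrays by 2 or more on the log2 scale and each Top3b26 value lay above each WT value. These differences chose the probes, so they are given as a description and support no statement. The 49 probes make up 0.299% of those measured. A difference of 2 or more alone held for 66 measured probes (0.403%), 17 of which overlapped between the genotypes, and the absence of overlap alone, with Top3b26 higher, for 4.34%. The mirror rule, with Top3b26 lower, took 123 probes (0.750%).

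Top3beta relaxes crossings in both DNA and RNA, and works in flies with the scaffold protein Tdrd3 and the small-RNA silencing machinery. Heterochromatin keeps transposable elements and some genes silent, and loss of a silencing factor is known to raise transcripts from such places. Whether the 44 transcripts come from heterochromatin was not analysed here, because neither the array files nor the gene table used here pairs any of their identifiers with a gene (0 of 44). For that reason 2 identifiers are printed, chosen by a fixed rule, and the other members are called by their rank in the size of the difference.

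Each array carried RNA from one of 6 separately prepared batches of heads, 3 Top3b26 and 3 WT, all adult, of W1118 strain background, with the sex of the flies not given in the labels. Top3b26 arose when a P-element was remobilized and is a single mutant stock, and the WT stock was bought from a stock center. Slide 1 held Top3b26 1, WT 1 and WT 2, and slide 2 held Top3b26 2, Top3b26 3 and WT 3. The median processed signal of an array ranged from 279 on Top3b26 2 to 1604 on Top3b26 3 among the mutants and from 461 to 1050 on the WT arrays, and the share of spots well above background was 71.1% to 81.2% in Top3b26 and 74.9% to 79.7% in WT. Levels below are log2 signals set to a common center and spread, so that 0 is the mean of an array and a negative level lies below that mean. The number of arrays, 3 per genotype, limits the precision. Of the 14 photoreceptor, 5 neuron and 3 glia markers that could check the labelled tissue, none could be matched to a probe, so that the tissue label was not checked.

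The members differed by 2.75 at the median, which is a 6.74-fold change, with quartiles of 2.33 and 3.09 and a range of 2.01 to 4.84. Over all measured FlyBase probes the median difference was -0.19 on this scale. Differences of 4 or more were seen at 4 members, of 3 or more at 13, and of less than 2.5 at 16. At the lower edge, the members nearest to the threshold differed by 2.01, 2.03 and 2.03. The nearest probes outside it, also without overlap, differed by 1.99, 1.98 and 1.96, and one of these was as tight as many members, with a gap of 1.61 between its lowest Top3b26 and highest WT value.

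**Figure D1:**
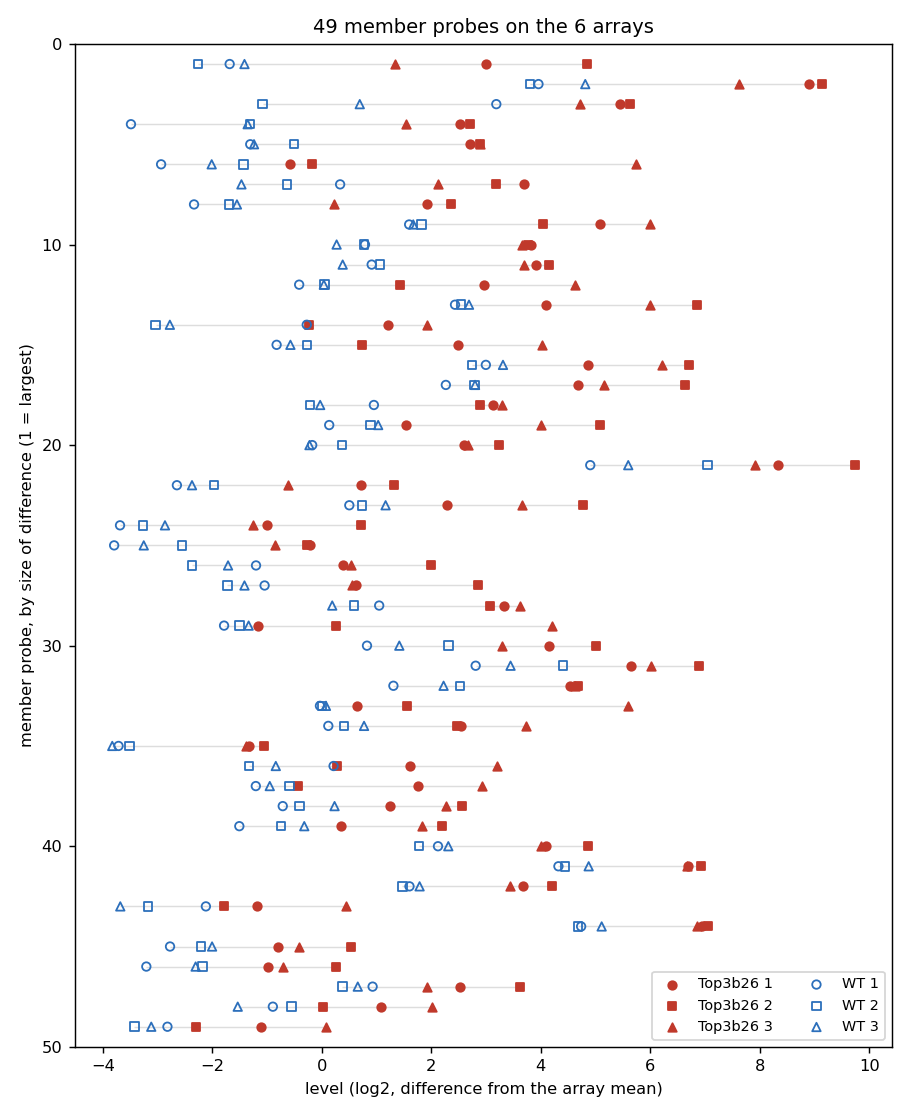
Level of each of the 49 member probes (rows, ranked by the size of the difference) on the 3 Top3b26 arrays (filled red) and the 3 WT arrays (open blue), in log2 units from the array mean. The filled symbols lie to the right of the open ones in every row by the rule, and the gap between them runs from 0.04 to 3.21.

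The largest difference belonged to FBtr0110954. Its level was 2.99, 4.83 and 1.33 on Top3b26 1 to 3, against -1.68, -2.27 and -1.41 on WT 1 to 3. Each Top3b26 value was thus at least 2.75 above each WT value, but the Top3b26 arrays spread over 3.50 among themselves. In processed signal it read 3892, 6686 and 2202 units in Top3b26, against 107, 75.1 and 304 units in WT. By limma it differed by 4.84 ± 0.88 (SE, n = 3 arrays per genotype), and the p adjusted over every tested probe was 0.097. The wide spread in Top3b26 (SD 1.75, against 0.44 in WT) stands beside a large difference that was not called.

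The member with the highest level in Top3b26 was FBtr0089324, which exceeded 99.5% of measured probes there and 92.7% of them in WT. Its level was 8.33, 9.74 and 7.91 on the Top3b26 arrays, against 4.90, 7.04 and 5.60 on the WT arrays. WT 2 was the highest WT array, only 0.87 below the lowest Top3b26 array. By limma it differed by 2.81 ± 0.72 (SE, adjusted p = 0.203). On the scale of processed signal it read 150244, 217302 and 203170 units in Top3b26, against 9968, 50046 and 38399 units in WT, and 0 spots on any array were saturated. A transcript already bright on the WT arrays read brighter still on each Top3b26 array, with wide variation within both genotypes.

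Most members were dim in WT. The mean WT level of a member was -0.11 at the median, against 2.54 for all measured FlyBase probes, and 32 of the 49 members (65.3%) lay in the lowest quartile of measured probes in WT, while 4 lay in the highest. In Top3b26 the members reached a median of 2.83, against 2.35 for all measured probes, with 8 in the lowest quartile and 14 in the highest. Seen by array, the median member stood at 2.52, 2.89 and 3.29 on Top3b26 1 to 3, against -0.03, -0.28 and -0.03 on WT 1 to 3, where the median measured probe stood at 2.34, 2.68, 2.19, 2.42, 2.61 and 2.61 in the same order. These levels include each probe's own affinity, and those of the members are the values that chose them. In whole-head RNA, more cells of a type and more RNA per cell cannot be told apart.

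**Figure D2:**
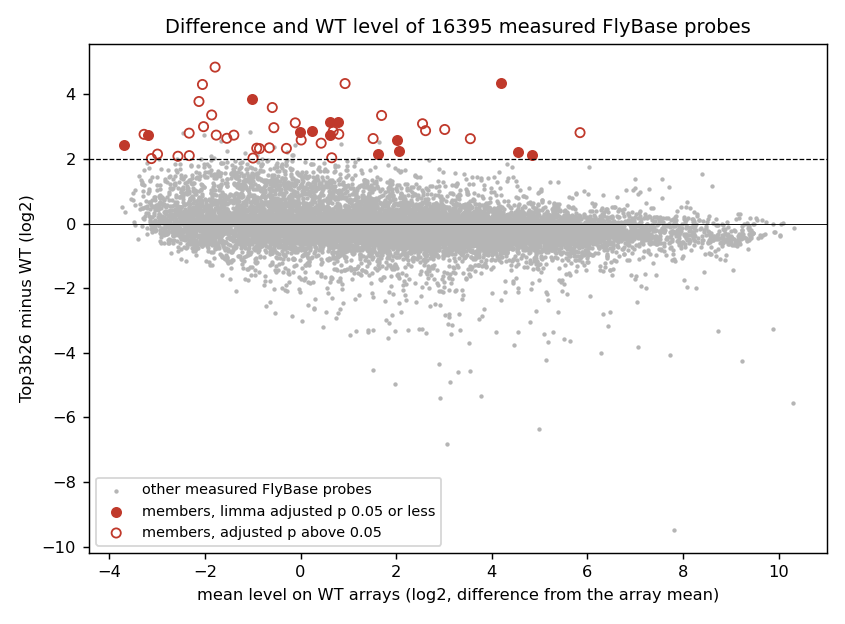
Top3b26 minus WT difference (vertical, log2) against mean WT level (horizontal, log2 from the array mean) for the 16395 measured FlyBase probes, with members in red and the threshold of 2 as a dashed line. Members are most dense at low WT levels. The 14 filled ones, with a limma adjusted p of 0.05 or less, lie at WT levels from -3.69 to 4.84. The member with the highest WT level, FBtr0089324 at 5.85, is open.

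By limma, fitted over 23007 tested probes, 14 members for 11 transcripts had an adjusted p of 0.05 or less, where 0.170% of all tested probes and 0.110% of the measured FlyBase probes were called higher. At a looser limma threshold, a false discovery rate of 0.3 and a fold of 1.5, it was 42 members, where 1.69% of tested and 1.19% of measured FlyBase probes were called higher. Both values are taken from the study's methods, whose other criteria were not applied, among them a mean level of at least 0 in each group, which 23 of the 49 members had in WT. The fit uses the contrast that chose the members, so nothing is read from these counts. With the slide as a fixed block limma called 1 member, and 2 of all tested probes, higher. With the slide as a random block it called 17 members and 70 tested probes. With 1 array left out, it called 0, 23 and 7 members without Top3b26 1, 2 and 3, where 2, 110 and 17 tested probes were called higher. It called 0, 1 and 0 members without WT 1, 2 and 3, where 1, 2 and 1 tested probes were. A call divides the difference by its error, so a smaller spread in called members is part of how they were called. The 14 called members differed by 2.74 at the median, and the other 35 by 2.76. The median SD over the Top3b26 arrays was 0.21 in the called members and 1.02 in the others, whereas the median SD over the WT arrays was 0.34 in the called members and 0.42 in the others.

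The member with the fifth largest difference had the widest gap between the genotypes. It stood at 2.71, 2.89 and 2.88 on the Top3b26 arrays, against -1.31, -0.51 and -1.24 on the WT arrays, and differed by 3.85 ± 0.28 (SE, limma adjusted p = 0.0069). The lowest Top3b26 array was 3.21 above the highest WT array. The member that ranked second was bright in both genotypes, at 8.89, 9.14 and 7.62 in Top3b26, against 3.96, 3.81 and 4.81 in WT. Both therefore changed several-fold with a Top3b26 spread below 1 (SD 0.11 and 0.82). At the member with the fourth largest difference, 1 WT array was far below the rest, with levels of 2.52, 2.70 and 1.54 in Top3b26, against -3.49, -1.31 and -1.36 in WT (limma adjusted p = 0.068).

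Several called members had nearly the same level on all 3 Top3b26 arrays. The member that ranked 35 was the dimmest called one, at -1.33, -1.06 and -1.39 in Top3b26, against -3.71, -3.51 and -3.83 in WT. It lay below the array mean in both genotypes, and by limma differed by 2.43 ± 0.21 (SE, adjusted p = 0.011). The member that ranked 18 has 10 spots on each array, more than any other member, and read 3.13, 2.89 and 3.29 in Top3b26, against 0.95, -0.22 and -0.03 in WT. The member that ranked 20 read 2.60, 3.24 and 2.67 in Top3b26, against -0.18, 0.37 and -0.23 in WT. These were near the array mean in WT and well above it in Top3b26. Higher up the range, the member that ranked 44 had the smallest difference among the called ones, 2.11 ± 0.21 (SE, limma adjusted p = 0.018), with levels of 6.94, 7.05 and 6.86 in Top3b26, against 4.73, 4.68 and 5.11 in WT.

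At 11 members the lowest Top3b26 value exceeded the highest WT value by 2 or more, where 0.067% of measured probes did. It did so by 1 or more at 35 members (0.378% of measured probes). The excess was above 0 but less than 0.5 at 5 members (3.42%). The rule asks for an excess above 0 at every member, so these counts are a description. The members varied more between preparations than the measured probes as a whole. The same values chose the members, so their choice bears on this spread. Most members were dim in WT, and no probes of matched level were compared. The SD of the members over the 3 Top3b26 arrays was 0.89 at the median, against 0.46 for all measured FlyBase probes. Over the 3 WT arrays it was 0.41, against 0.19. Replicate spots of the 21 members that have them differed within an array by a median SD of 0.07. Both genotypes had a range of 1 or less at 10 members, against 57.1% of measured probes. The smallest gap, 0.04, was at the member that ranked 14, which stood at 1.22, -0.24 and 1.93 in Top3b26, against -0.28, -3.04 and -2.78 in WT. There WT 1 came close to the lowest Top3b26 array. At 8 members the Top3b26 arrays spread over more than 3, against 3.67% of measured probes.

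Which Top3b26 array was high differed among the members. The rule set no order among these 3 arrays, but a single high array can lift a mean difference to 2. Left out 1 at a time, Top3b26 1, 2 and 3 brought 0, 7 and 8 members below a difference of 2. The choice of members therefore bears on the shares below, which are a description. Arrays 2 and 3 of Top3b26 lay within 1 of each other at 21 members (42.9%), where 60.6% of measured probes did. Array 2 exceeded array 3 by more than 1 at 15 members (30.6%, against 31.6% of measured probes), and array 3 exceeded array 2 by more than 1 at 13 members (26.5%, against 7.72%). Array 1 was the highest Top3b26 array at 3 members, array 2 at 31 and array 3 at 15, where array 2 was the highest at 73.3% of measured probes and array 3 at 14.9%. Top3b26 2 had the lowest median signal of the 6 arrays (279) and Top3b26 3 the highest (1604), and the part of signal level in this order was not tested. These groups were formed after the values were seen and were not tested.

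The 21 members with arrays 2 and 3 close together held 13 of the 14 called members. This grouping limits the Top3b26 spread and so favours a call. The median level of the 21 was 3.67, 3.76 and 3.61 on Top3b26 1 to 3, against 0.95, 0.59 and 0.27 on WT 1 to 3. The gap between the genotypes was 1.70 at the median and 1 or more at 20 of the 21. The remaining one had a gap of 0.68.

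The 15 members higher on array 2 than on array 3 had median levels of 2.52, 3.61 and 1.92 in Top3b26, against 0.13, -0.64 and -1.36 in WT. They include FBtr0110954, FBtr0089324 and the bright member that ranked second, the only one of the 15 that was called. The lowest Top3b26 array was array 3 at 11 of the 15 and array 1 at the other 4. One of those 4 was the member that ranked 19, at 1.53, 5.07 and 4.0 in Top3b26, against 0.13, 0.88 and 1.03 in WT, where array 1 lay 0.50 above the highest WT array and the other Top3b26 arrays lay far above it.

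The 13 members higher on array 3 than on array 2 had median levels of 1.22, 0.25 and 3.73 in Top3b26, against -0.83, -0.59 and -0.95 in WT. None of them was called by limma, and their differences, 2.01 to 3.78, were of about the same size as in the other groups. The grouping itself widens their Top3b26 spread (median SD 1.46, against 0.36 in the 21 members above), which works against a call. The gap of the 13 was 0.57 at the median, and was 1 or more at 4 of them. The widest case was the member that ranked sixth, which stood at -0.59, -0.19 and 5.74 on the Top3b26 arrays, against -2.94, -1.43 and -2.01 on the WT arrays. Here array 3 alone was far above WT, and by limma it differed by 3.78 ± 1.74 (SE, adjusted p = 0.520). The members that ranked 29 and 33 had the same form. The member that ranked 29 stood at -1.17, 0.25 and 4.20 in Top3b26, against -1.79, -1.50 and -1.34 in WT. The member that ranked 33 stood at 0.64, 1.55 and 5.60 in Top3b26, against -0.03, 0.00 and 0.07 in WT.

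**Figure D3:**
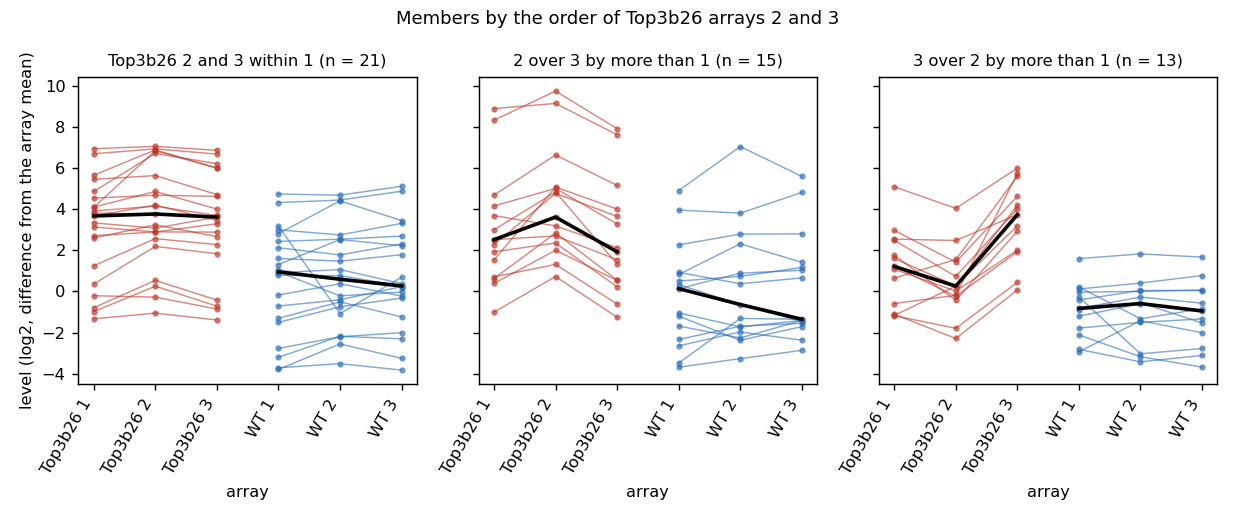
Level of each member (thin lines, log2 from the array mean) on the 3 Top3b26 arrays (red) and the 3 WT arrays (blue), in 3 panels by whether Top3b26 arrays 2 and 3 lay within 1 (21 members), 2 exceeded 3 (15) or 3 exceeded 2 (13); black lines are medians, and lines only join the values of a probe. In the right panel Top3b26 2 has a median of 0.25 and Top3b26 3 of 3.73.

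Among all tested probes, 1982 read more than 3 higher on Top3b26 3 than on Top3b26 2, and their median levels were 1.42, -4.26 and 3.09 in Top3b26, against 0.81, -1.45 and -0.82 in WT. Arrays 2 and 3 chose these probes, so their order there is set by the choice. Top3b26 2 lay below all 3 WT arrays at the median of these probes. At the median of the 13 members it lay above them, which the rule of no overlap imposes. At 6 members (12.2%) array 3 exceeded array 2 by more than 3, where 3.31% of measured FlyBase probes did. The choice of members bears on this share too. Fly cDNA clones made from adult testis carry names that begin with AT. The median of 80 tested probes for such clones was 0.94, -1.70 and 1.94 on the Top3b26 arrays, against 0.28, -1.0 and -0.61 on the WT arrays. Of 8 testis, 4 ovary and 3 yolk protein genes listed as markers, none was matched to a probe. The male-specific RNAs roX1 and roX2, which act in dosage compensation of the X chromosome, had 4 and 2 tested probes. Averaged within each gene and then over both genes, their levels were 4.30, 4.90 and 3.78 on the Top3b26 arrays, against 3.42, 3.99 and 3.94 on the WT arrays. These averaged 4.32 ± 0.56 in Top3b26 and 3.78 ± 0.32 in WT (SD, n = 3 arrays each) and overlapped between the genotypes. The part of testis RNA, or of the share of males, in the members' levels was not tested.

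Each slide held both genotypes, so the difference could be read within a slide, with 1 Top3b26 array on slide 1 and 1 WT array on slide 2. All 49 members were higher in Top3b26 on both slides, where 19.2% of measured probes were, which the rule of no overlap imposes. The sizes come from the same 6 values as the rule and are given as a description. The median difference was 2.28 within slide 1 and 3.00 within slide 2. A difference of 2 or more was reached by 35 members on slide 1, where 0.945% of measured probes reached it, by 47 on slide 2 (0.781%) and by 33 on both (0.262%). The smallest was 0.48 on slide 1, at the member that ranked 29, where Top3b26 1 was close to WT.

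**Figure D4:**
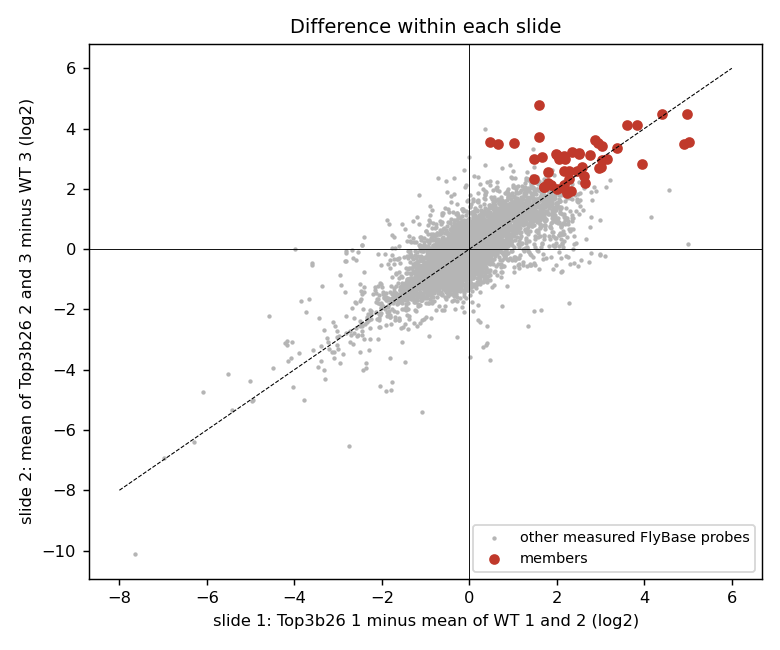
Top3b26 minus WT difference within slide 2 (vertical, log2) against that within slide 1 (horizontal, log2), for members (red) and all other measured FlyBase probes (grey), with equality as a dashed line. Of the 49 members, 33 lie above the line, and the lowest difference on slide 1 is 0.48.

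Probes for the same transcript give a second reading of the same RNA samples, but share the arrays and the contrast with the rule. Of the 44 transcripts, 31 had 1 probe on the array and 13 had 2 or more. At 5 transcripts every probe was a member. The 2 differences of such a pair lay between 0.002 and 0.15 apart, and the levels were at most 0.89 apart on any array. Both probes of such a pair met the rule, so the choice bears on how close they lie. For example, the probes that ranked 10 and 11 are for 1 transcript. The first read 3.81, 3.76 and 3.65 in Top3b26, against 0.79, 0.77 and 0.27 in WT. The second read 3.92, 4.14 and 3.69 in Top3b26, against 0.91, 1.06 and 0.38 in WT. The highest Top3b26 array differed between them, array 1 at the first and array 2 at the second. In another pair, that ranked 12 and 15, both probes had array 3 highest and array 2 lowest in Top3b26. The first read 2.97, 1.42 and 4.63 in Top3b26, against -0.41, 0.05 and 0.04 in WT. The second read 2.48, 0.73 and 4.02 in Top3b26, against -0.83, -0.28 and -0.57 in WT.

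At the other 8 transcripts, 10 probes were not members, 6 of them measured on all arrays. Of these 6, 4 differed by between 1 and 2 in the same direction, and 3 of the 4 did not overlap between the genotypes. The other 2 belong to 1 transcript, with the member that ranked 27, and differed by -0.26 and -0.63. The member probe of that transcript read 0.62, 2.84 and 0.55 in Top3b26, against -1.05, -1.73 and -1.41 in WT. The first of its other probes read 4.40, 5.06 and 4.24 in Top3b26, against 4.94, 4.64 and 4.89 in WT, far brighter and overlapping between the genotypes. The spread of 3.37 between the probes of this transcript compares with a median of 0.19 over the 3291 measured transcripts with 2 or more measured probes, of which 0.273% had a spread over 3. Which of the probes follows the transcript was not tested. At the transcript with the third largest difference, the member probe differed by 4.33 and its other probe by 1.76. The member probe read 5.45, 5.63 and 4.71 in Top3b26, against 3.19, -1.08 and 0.69 in WT, a WT range of 4.27, the widest among the members. Its other probe read 6.44, 6.51 and 5.61 in Top3b26, against 5.00, 4.19 and 4.07 in WT.

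**Figure D5:**
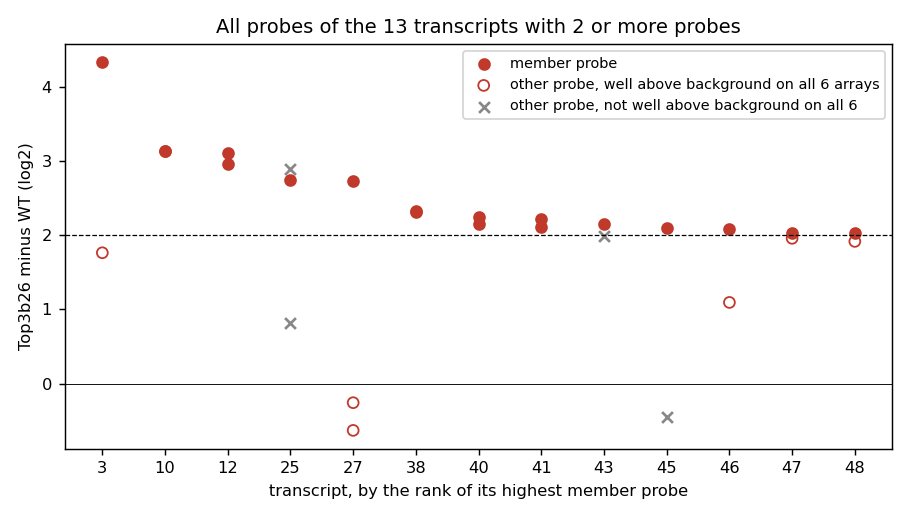
Top3b26 minus WT difference (vertical, log2) of every probe of the 13 transcripts with 2 or more probes, labelled by the rank of the member probe (filled red); open circles are other probes measured on all arrays and crosses are probes not well above background on all 6. Filled points coincide at ranks 10 and 38, and 1 transcript, at rank 27, has both other probes slightly below 0.

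Single arrays decided part of the membership. Without Top3b26 1, all 49 members still met the rule. The number was 42 without Top3b26 2 and 41 without Top3b26 3. It was 46 without WT 1, 47 without WT 2 and 47 without WT 3. The medians of the genotypes, which a single high array cannot carry, differed by at least 1.55 at all members. They differed by 2 or more, with Top3b26 higher, at 40 of the 49 members, where 1.74% of measured probes did. These medians come from the same values that chose the members, under a rule of no overlap, so they are given as a description. Of the 78 spots of the members, 17 lay in the upper left quadrant of the array, 16 upper right, 27 lower left and 18 lower right. Of all non-control spots, 25.3%, 24.7%, 25.3% and 24.7% lay there, in the same order. A single member has 10 of the 78 spots.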

How the data were processed

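The labels gave each sample its genotype and replicate number. The deposited files hold processed Cy3 signal intensities that the authors made with Agilent Feature Extraction, which subtracts background and corrects spatial trends inside an array and does not scale arrays to each other. The score values deposited by the authors are z-scores of the log signal and served as an alternative. They lay within 0.00502 of z-scores recomputed here over all spots, control spots included. Following the methods, a z-transformation was used: each array's log2 signals, less their mean over non-control spots, were divided by the SD of those spots and returned to log2 units with the mean SD of the 6 arrays (3.89). Outlier spots were left out, which changed no member, and spots of a probe were averaged. Probes with every spot well above background on all arrays of at least 1 genotype were tested with R 4.3.3 and limma 3.58.1 (lmFit and eBayes, no covariate), with Benjamini-Hochberg adjustment over the 23007 probes. The fit was tested on simulated data.

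A gene table (RefSeq, Release 6) named 339 of 32162 probes (1.05%) and 0 members. The members, marker lists and alternatives were chosen with earlier results of these data known. Printed identifiers are the member with the largest difference and that with the highest Top3b26 level. Members and probes singled out by rank were chosen after their values were seen. Top3beta, the silencing factors, the genes of the 3L telomere, and fat body, detoxification, immunity, protease and heat shock genes were not analysed here, for lack of names. No sequence was printed, since no probe sequence was used here. P-values measure the spread between separately prepared head samples. For normexp, the median spot signal was used.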

Additional observations from a re-analysis of the deposited data

How the results depend on the processing

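All 49 members stayed higher in Top3b26 under each of the 5 other scalings or spot rules, and between 45 and 49 stayed without overlap. Their median difference, 2.75, was 2.30 under normexp with quantile normalization, 2.28 within slide 1 alone and 2.60 to 2.93 when 1 array was left out. Over all measured FlyBase probes it was -0.19 as scaled here and -0.01 after median-difference scaling, where the members' median was 2.93. The rule took 49 probes here, 31 under normexp, 95 when a probe had to be well above background in 1 genotype only, 114 at a threshold of 1.5 and 13 at a threshold of 3. Leaving out 1 array gave 52 to 1460, namely 66, 1460 and 55 without Top3b26 1, 2 and 3 and 90, 63 and 52 without WT 1, 2 and 3.

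The count of called members was 14, where 0.170% of tested probes were called higher. It was 25 after median-difference scaling (0.843% of tested probes) and 9 with all non-control probes tested (0.0497%). With the slide as a fixed block it was 1 (0.00869%), and with it as a random block 17 (0.304%). By the plain 2-group test it was 4 after adjustment (0.0695%) and 41 before it (2.71%). At a limma false discovery rate of 0.3 and fold of 1.5, without the other criteria of the methods, it was 42 (1.69%). It was 0 to 23 when 1 array was left out. Without Top3b26 1, 2 and 3 it was 0, 23 and 7, where 0.00869%, 0.478% and 0.0739% of tested probes were called higher. Without WT 1, 2 and 3 it was 0, 1 and 0, where 0.00435%, 0.00869% and 0.00435% were. With the replicate number as a block limma called 0 members, and 0 of all tested probes, higher. Deviations of same-numbered arrays from their genotype means had correlations across 22949 probes of 0.564, 0.591 and -0.371. Whether the replicate numbers pair the arrays was not tested. At an unadjusted limma p under 0.05 the count of members was 46 with all arrays and no block, where 10.7% of measured FlyBase probes, in either direction, were. For the fits with 1 array left out or with the replicate block, this share over all probes was not counted, so their counts are not given. Fewer arrays and added terms leave fewer degrees of freedom. The part of this, or of any other cause, in the counts was not tested. FBtr0110954 was higher in all 19 alternatives, by 3.42 to 5.70, and called in 3 of 18 adjusted fits (limma or plain test adjusted p 0.036 to 0.412), and FBtr0089324 was higher by 2.27 to 3.41 and called in 0 of 18 (0.106 to 0.705). A direction that the rule imposes is no sign of stability. The median signal was 57.2 times the negative controls on Top3b26 2, against 68.4 to 186 on the other arrays.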

Other observations

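Without Top3b26 2, the rule took 1460 probes among those well above background on the other 5 arrays, 481 of which were measured on all 6 and 42 of which are members. At 400 of the 481 (83.2%) Top3b26 3 exceeded Top3b26 2 by more than 3. The median levels of the 481 were 1.72, -1.57 and 3.32 on Top3b26 1 to 3, and the median of their WT means was -0.18. A measured probe that was chosen without Top3b26 2 and is no member had to be lower there than the mean of the other mutant arrays, so this order is set by the choice. The 17 measured probes with a difference of 2 or more and overlapping genotypes had a like form, with Top3b26 3 the highest mutant array at all 17 and Top3b26 2 the lowest at 15. The largest of these differences was 3.14, with levels of 5.07, -0.08 and 6.89 in Top3b26, against 0.37, 0.64 and 1.45 in WT. No cause of these patterns was tested.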
